A study of Mus musculus with 2 samples.

Results

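The genes described here are those whose symbols begin with Krt and a digit, Lce or Sprr, together with Lor. The annotation of the deposited tables held 90 such symbols among 32285 genes. Of these, 76 had at least 1 UMI in the sorted cells of early anagen and 37 had at least 1 UMI in the sorted melanocytes of the hair bulb. Of all 32285 genes, 20057 and 16321 had a UMI in these libraries after the quality filter. The members were followed in every cell barcode that passed the quality filter, after the barcodes of each library had been split into 3 classes by the summed UMIs of Krt5, Krt10 and Krt14.

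A UMI is a molecular tag that lets each captured RNA molecule be counted once, and CPM is the number of UMIs of a gene per 1000000 UMIs of the barcodes in question. Barcodes with fewer than 3 UMIs of Krt5, Krt10 and Krt14 form the keratin-low class. Barcodes with at least 3 such UMIs but less than 2000 CPM form the keratin-intermediate class, and those at 2000 CPM or more form the keratin-high class. The level of these 3 genes in each class is therefore set by the split and is given only as a description.

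Both libraries came from back skin of mice that carry the Dct-rtTA and tetO-H2B-GFP transgenes, in which the Dct promoter drives a doxycycline-dependent nuclear GFP label in melanocytes. For the early-anagen library, GFP+ cells (early-anagen McSCs, melanocyte stem cells) were sorted from anagen II skin of mice depilated at 8 weeks of age. Skin was taken 4 days after depilation, after 4 days on a doxycycline diet. For the bulb library, GFP+ cells (bulb melanocytes) were sorted from microdissected hair bulbs of anagen VI hair follicles (HFs) of mice 5 weeks old, also after 4 days of doxycycline. No depilation is stated for the bulb mice. Cells of 4 mice were pooled before loading, so each condition was 1 library without a biological replicate. No p-value is given, and every interval below is an exact 95% interval that covers counting error only.

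Keratins are the intermediate-filament proteins of epithelial cells, and they assemble from pairs of a type I and a type II chain. Dividing cells of the basal epidermis and of the outer root sheath of the HF use Krt5 with Krt14, and cells that leave the basal layer switch to Krt1 with Krt10. Loricrin (Lor) and the Sprr and Lce proteins are cross-linked under the membrane of the outermost cells into the cornified envelope. Within the growing follicle, other keratins mark the companion layer, the inner root sheath and the hair shaft. Melanocytes sit among these epithelial cells and hand their pigment to them, and keratins do not belong to their usual gene programme.

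The sequences before the start sites of 4 members are shown because each stands for a role met below: Krt5 for basal cells, Krt10 for suprabasal cells, Lor for the cornified envelope and Krt71 for the inner root sheath. Each is the stretch of 250 bases upstream of the RefSeq start in build GRCm38.p6, on the minus strand, written 5′ to 3′. The window of Krt5 is chr15:101712906-101713155, that of Krt10 chr11:99389365-99389614, that of Lor chr3:92083143-92083392 and that of Krt71 chr15:101743098-101743347. Capitals mark matches on either strand to 3 motifs. The first is TATAAA, the core promoter box bound by the general transcription machinery. The second is TGANTCA, the AP-1 motif. The last is TCATGTG, the M-box bound by Mitf family factors.
Krt5: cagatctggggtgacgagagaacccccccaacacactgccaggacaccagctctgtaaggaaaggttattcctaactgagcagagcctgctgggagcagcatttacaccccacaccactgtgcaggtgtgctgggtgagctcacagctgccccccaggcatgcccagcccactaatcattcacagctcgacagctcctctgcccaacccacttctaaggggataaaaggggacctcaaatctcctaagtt
Krt10: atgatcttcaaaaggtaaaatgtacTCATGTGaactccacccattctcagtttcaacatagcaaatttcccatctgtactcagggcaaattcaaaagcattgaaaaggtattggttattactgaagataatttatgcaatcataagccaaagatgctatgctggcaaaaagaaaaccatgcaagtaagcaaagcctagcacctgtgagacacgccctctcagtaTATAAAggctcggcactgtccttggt
Lor: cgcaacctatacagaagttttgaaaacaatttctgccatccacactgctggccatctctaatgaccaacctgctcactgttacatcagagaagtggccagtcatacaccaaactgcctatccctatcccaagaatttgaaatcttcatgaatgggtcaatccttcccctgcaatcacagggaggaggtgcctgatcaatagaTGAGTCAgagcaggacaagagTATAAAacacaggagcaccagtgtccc
Krt71: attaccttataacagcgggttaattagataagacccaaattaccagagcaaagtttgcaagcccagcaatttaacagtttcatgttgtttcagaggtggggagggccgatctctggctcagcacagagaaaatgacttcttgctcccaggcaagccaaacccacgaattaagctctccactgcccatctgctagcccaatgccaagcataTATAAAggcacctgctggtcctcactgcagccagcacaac

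Such windows were found for 71 of the 90 members, as 72 windows, and none of the motifs overlapped in those shown. TATAAA was present in 32 of the 72 (44.4%), against 12.4% of all 32851 windows of the same length. Lor held TGAGTCA 48 bases before its start, and TGANTCA occurred in 12 of 72 member windows against 6.75% of all windows. Krt10 held TCATGTG 225 bases before its start, a motif of 4 member windows and of 3.25% of all windows. These matches describe the letters of the windows and do not show that a factor binds there.

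The early-anagen library held 11010 barcodes, of which 3464 passed the filter with a median of 23237 UMIs. The bulb library held 4327 barcodes, of which 3774 passed with a median of 14275.5 UMIs. The kits differed (Chromium 3′ version 3 and version 2), and so did the dissociation (trypsin on separated epidermis, collagenase and dispase on dissected bulbs). Mouse age and the stated depilation differed as well. Chemistry, dissociation, age, depilation, depth and condition therefore cannot be told apart. Only 1 barcode sequence was shared by the libraries. Melanocyte markers (Dct, Tyrp1, Tyr, Pmel, Mlana, Mitf, Sox10 and Kit) had a median sum of 24274 CPM in the early-anagen keratin-low class and of 68247 CPM in the bulb keratin-low class, which matches the labelled cell type. No doublet caller was run, so that 2 cells in 1 droplet were not removed.

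Keratin and cornified envelope UMIs made up 0.164% of all UMIs in early anagen and 0.0125% in the bulb. In early anagen, 2746 barcodes were keratin-low, 605 were keratin-intermediate (17.5%, 95% interval 16.2 to 18.8) and 113 were keratin-high (3.26%, 2.70 to 3.91). In the bulb, 3744 barcodes were keratin-low, 29 were keratin-intermediate (0.768%, 0.515 to 1.10) and only 1 was keratin-high. Of the members with a UMI, 30 were seen in both libraries, which is 39.5% of those of early anagen and 81.1% of those of the bulb. Over all genes, 20057 had a UMI in early anagen and 16321 in the bulb, and their overlap was not counted. The shares of 39.5% and 81.1% therefore have no background over all genes. The 7 members seen only in the bulb were Krt39, Krt33a, Krt33b, Krt34, Krt36, Krt83 and Krt84, all of them hair shaft keratins. The other 7 symbols, among them Krt20, Krt13 and Krt9, had no UMI in either.

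Values next to the limits were close together. In early anagen, 259 barcodes held 2 UMIs of the class genes and 90 held 3, and the highest intermediate barcode was at 1978 CPM against 2019 CPM for the lowest keratin-high barcode. In the bulb, 101 barcodes held 2 UMIs and 17 held 3, and the corresponding limits were 1848 and 3400 CPM.

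**Figure D1:**
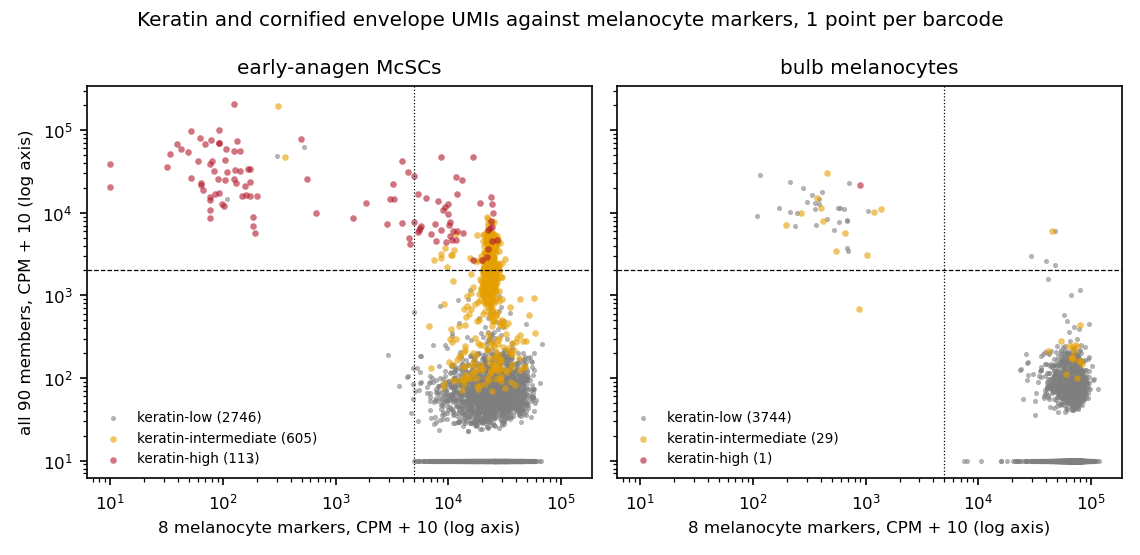
Each point is a barcode of the early-anagen (left) or bulb (right) library, placed by the summed CPM of the 8 melanocyte markers (x) and of all 90 members (y), both plus 10 on log axes and coloured by keratin class. The dashed line marks 2000 CPM of members and the dotted line 5000 CPM of melanocyte markers; keratin-high barcodes (113 and 1) lie mostly to the left, whereas 603 of 605 early-anagen keratin-intermediate barcodes lie to the right.

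The early-anagen keratin-high class held the keratins of basal and suprabasal epidermis together. Summed over its barcodes, members reached 29662 CPM (29497 to 29827), and 65 members were detected. The basal type I keratin Krt14 was at 6673 CPM (6595 to 6752) and its type II partner Krt5 at 2863 CPM. The suprabasal pair was close behind, with Krt10 at 4292 CPM and Krt1 at 3518 CPM. Krt17, of the outer root sheath and of activated keratinocytes, was at 2496 CPM, and the wound keratin Krt16 was at 1675 CPM. Krt15, of basal and bulge cells, was at 1114 CPM. Sprr1a, a cornified envelope precursor, was at 1819 CPM, whereas Lor was at 975 CPM.

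The barcodes were further grouped by which keratin pair was higher. In 86 of 113 barcodes the sum of Krt5 and Krt14 exceeded that of Krt1 and Krt10, in 27 the reverse held, and in 0 the sums were equal. Barcodes with the higher suprabasal pair held 99.5% of the class's Lor UMIs and 98.8% of those of Krt77, a suprabasal type II keratin. A single barcode held 3081 of the 4078 Lor UMIs, which is 75.6%. Lor was found in 55.6% of the barcodes with the higher suprabasal pair. Krt15 had 93.8% of its UMIs in the 86 barcodes with the higher basal pair, at 1416 CPM against 265 CPM in the others. The levels of both pairs in these groups are set by the grouping.

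Other epidermal genes were high beside the keratins. Of the epidermal adhesion list (desmosome and hemidesmosome genes), 15 of 15 were detected and the sum was 4463 CPM, led by Perp at 1882 CPM, desmoplakin (Dsp) at 791 CPM and plakoglobin (Jup) at 322 CPM. The keratinocyte identity list summed to 22935 CPM, with Lgals7 at 9133 CPM, Krtdap, a gene of differentiating keratinocytes, at 4133 CPM and Sfn, a 14-3-3 protein of epithelia, at 2726 CPM. The cornification list reached 1895 CPM, with filaggrin (Flg) at 682 CPM, involucrin (Ivl) at 67.9 CPM and the transglutaminase Tgm3 at 12.0 CPM. Cnfn at 403 CPM and Klk7 at 375 CPM stood above Ivl and Tgm3. Ivl and Tgm3, like Tchh and Msx2 below, were named for their level in the single keratin-high bulb barcode. Hair follicle genes were at 740 CPM in sum, led by Sox9 at 249 CPM, Postn at 124 CPM and Lhx2 at 114 CPM. Among the others the inner root sheath protein Tchh was at 6.21 CPM, Msx2 at 2.39 CPM and Hoxc13 at 10.3 CPM. Gata3 was higher, at 99.4 CPM in 70.8% of barcodes. Cdh3 went the other way, at 64.8 CPM against 145 CPM in the early-anagen keratin-low class. It was the 1 lower gene among 12 of this list tested between these classes, and 11 were higher. The bulge regulators Sox9 and Lhx2, named after their values were seen, were at 297 and 151 CPM in barcodes with the higher basal pair. In the other barcodes Sox9 was at 114 CPM and Lhx2 at 9.12 CPM.

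Melanocyte transcripts divided the class. Markers were under 5000 CPM in 70 of its 113 barcodes (called melanocyte-poor here, a limit set after the values were seen) and above it in 43. The range over the class ran from 0 to 27314 CPM, and 28 barcodes lay between 2500 and 10000 CPM, so that the limit cuts a range rather than separating groups. The melanocyte-poor barcodes held 86.5% of the class's member UMIs. Both pairs occurred on each side of the limit, the suprabasal pair being higher in 17 melanocyte-poor and 10 melanocyte-rich barcodes. Depth was 34055 UMIs at the median for the poor and 25517 for the rich. Whether 2 cells shared these droplets was not tested.

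**Figure D2:**
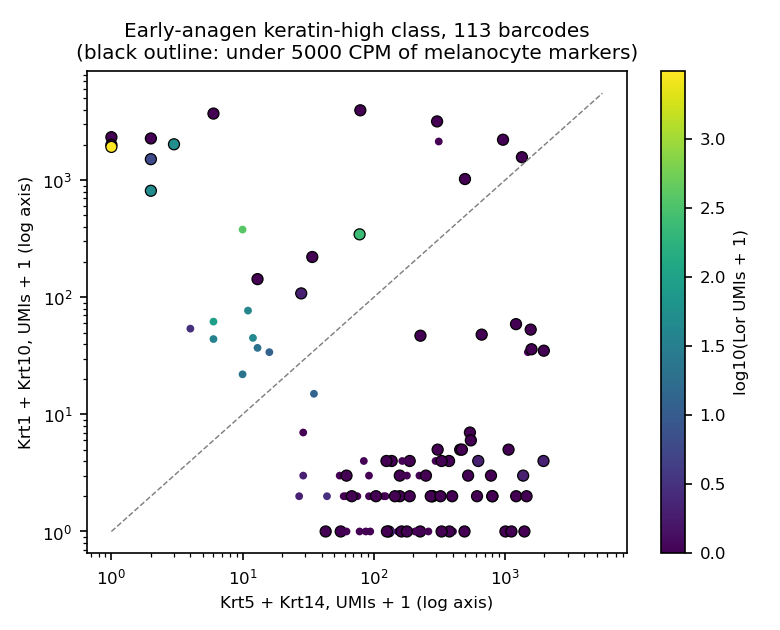
Each point is 1 of the 113 early-anagen keratin-high barcodes, with UMIs plus 1 of Krt5 and Krt14 (x) and of Krt1 and Krt10 (y) on log axes, coloured by log10 of Lor UMIs plus 1; a black outline marks fewer than 5000 CPM of melanocyte markers. The 27 barcodes above the dashed line of equality carry nearly all Lor UMIs, and outlined and plain points occur on both sides of it. Lor was found in 55.6% of these 27 barcodes, and 1 barcode held 75.6% of the Lor UMIs of the class.

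The keratin-intermediate class of early anagen held barcodes with melanocyte transcripts at their usual level. Melanocyte markers exceeded 5000 CPM in 603 of its 605 barcodes, and the class median of 23212 CPM was close to the 24274 CPM of the keratin-low class. Members summed to 1631 CPM (1608 to 1654) with 61 detected. Krt14 was at 227 CPM, Krt10 at 205 CPM, Lor at 200 CPM, Krt17 at 150 CPM, Krt1 at 111 CPM, Krt5 at 106 CPM and Krt16 at 56.8 CPM. A melanocyte-rich barcode of the class held a median of 21 member UMIs from 9 different members.

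The late cornified envelope genes of the Lce1 family, 14 annotated members, summed to 304 CPM in the intermediate class, 47.8 CPM in the keratin-high class and 1.07 CPM in the keratin-low class. A single melanocyte-poor barcode held 1534 of the 3557 Lce1 UMIs of the intermediate class, and without it the level was 173 CPM, still above the keratin-high class. Lce1 UMIs were found in 359 of the 605 barcodes (59.3%), in 20 of 113 keratin-high barcodes (17.7%) and in 74 of 2746 keratin-low barcodes (2.69%). Lce1a1 alone was at 59.3, 4.06 and 0.0803 CPM in these classes.

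Cornified envelope genes made up 36.9% of member UMIs in the intermediate class and 13.7% in the keratin-high class. They made up 34.9% over the 7546 failed early-anagen barcodes, of which 7241 had 10000 UMIs or fewer. The totals behind these shares include Krt5, Krt10 and Krt14, so the shares partly follow the split. The 1 barcode rich in Lce1 genes also enters the share of the intermediate class.

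Low depth went together with a high member level in melanocyte-rich barcodes of early anagen. Among the 693 passing barcodes with the fewest UMIs (10001 to 14022), 335 of 693 (48.3%) were keratin-intermediate, against 6.07% to 15.6% of the other depth groups of like size. Below the filter, the members reached 500 CPM, a limit set after the values were seen, in 62.2% of melanocyte-rich barcodes of up to 2000 UMIs and in 952 of 1359 of those of 2000 to 5000 UMIs (70.1%). That share was 46.6% (43.2 to 50.1) at 10000 to 15000 UMIs, 13.1% (10.3 to 16.2) at 15000 to 20000 UMIs and 3.83% (2.69 to 5.26) at 20000 to 30000 UMIs. In the bulb library it was 7 of 29 melanocyte-rich barcodes at up to 2000 UMIs (24.1%, 10.3 to 43.5), 0 of 43 at 2000 to 5000 UMIs, 0 of 441 melanocyte-rich barcodes at 5000 to 10000 UMIs, which allows up to 0.833%, and 3 of 1653 at 10000 to 15000 UMIs. All these depth bins keep the 5% mitochondrial limit and so leave out many shallow barcodes. The bulb bins up to 2000 and 2000 to 5000 UMIs held 36 and 50 barcodes, whereas 440 bulb barcodes had 5000 UMIs or fewer. In early anagen the bins up to 10000 UMIs held 1959, 1437 and 993, whereas 7241 had 10000 or fewer. In a barcode of up to 2000 UMIs a single member UMI already reaches 500 CPM, whereas deeper barcodes need more. The fall of the share with depth is therefore partly set by the limit of 500 CPM. The summed member level of melanocyte-rich early-anagen barcodes does not use it. That level was 1721 CPM at up to 2000 UMIs and 1168 CPM at 10000 to 15000 UMIs. It was 362 CPM at 15000 to 20000, 183 CPM at 20000 to 30000 and 385 CPM above 30000 UMIs. What the depth contributes to the class was not tested.

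Those barcodes were also alike in their melanocyte level. Among passing melanocyte-rich barcodes of early anagen, 277 had members at 500 to 2000 CPM and 259 at 2000 CPM or more, with median depths of 13378 and 11964 UMIs. The middle range (quartiles) of their melanocyte markers was 21711 to 24454 CPM and 21394 to 24475 CPM. In the 1058 melanocyte-rich barcodes without a member UMI it was 17525 to 32738 CPM, at a median depth of 21393.5 UMIs. The keratinocyte identity list stood at 178 CPM in barcodes without a member UMI, 1300.0 CPM in the group of 500 to 2000 CPM and 3884 CPM in the group above. In the keratin-low class the highest genes of this list were Cdh1 at 102 CPM and Klf5 at 33.6 CPM. Mitochondrial UMIs were alike, with medians from 2.88% to 3.16% over the 4 groups of member level.

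Against the keratin-low class of the same library, 35 of 41 members tested outside Krt5, Krt10 and Krt14 were at least 2-fold higher in the intermediate class with an interval off 0, where 4.70% of all 14780 genes tested were. Their median log2 ratio was 5.29 over 39 members, against -0.08 over all genes with UMIs in both classes. Against the same keratin-low class, 37 of 44 members were higher in the keratin-high class, where 14.3% of all genes were. The split used UMIs of these same barcodes, and keratins of the same cells are linked to the class genes, so the counts describe the classes. Epidermal adhesion genes were higher in the intermediate class for 13 of 14 tested, keratinocyte identity genes for 11 of 13, cornification genes for 11 of 13 (1 was lower) and hair follicle genes for 9 of 11, whereas 0 of 8 melanocyte markers passed in either direction.

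A few members did not follow. Krt80, a type II keratin of differentiating epithelia, was at 11.7 CPM in the keratin-low class and 11.5 CPM in the intermediate class (log2 ratio -0.03, -0.30 to 0.24), although it reached 49.7 CPM in the keratin-high class. The inner root sheath keratins Krt73 (log2 ratio 0.42, -0.40 to 1.16) and Krt25 (-0.49, -1.67 to 0.50) and the hair shaft keratin Krt87 (-0.30, -1.49 to 0.70) were not resolved from no difference. In the keratin-low class 1 barcode held 76 of the 86 Krt73 UMIs, and 1 held 70 of the 81 Krt25 UMIs. Without its member-rich barcodes the class was at 0.134 CPM for Krt73 and 0.147 CPM for Krt25. The ratios of Krt73 and Krt25 therefore rest on those barcodes.

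**Figure D3:**
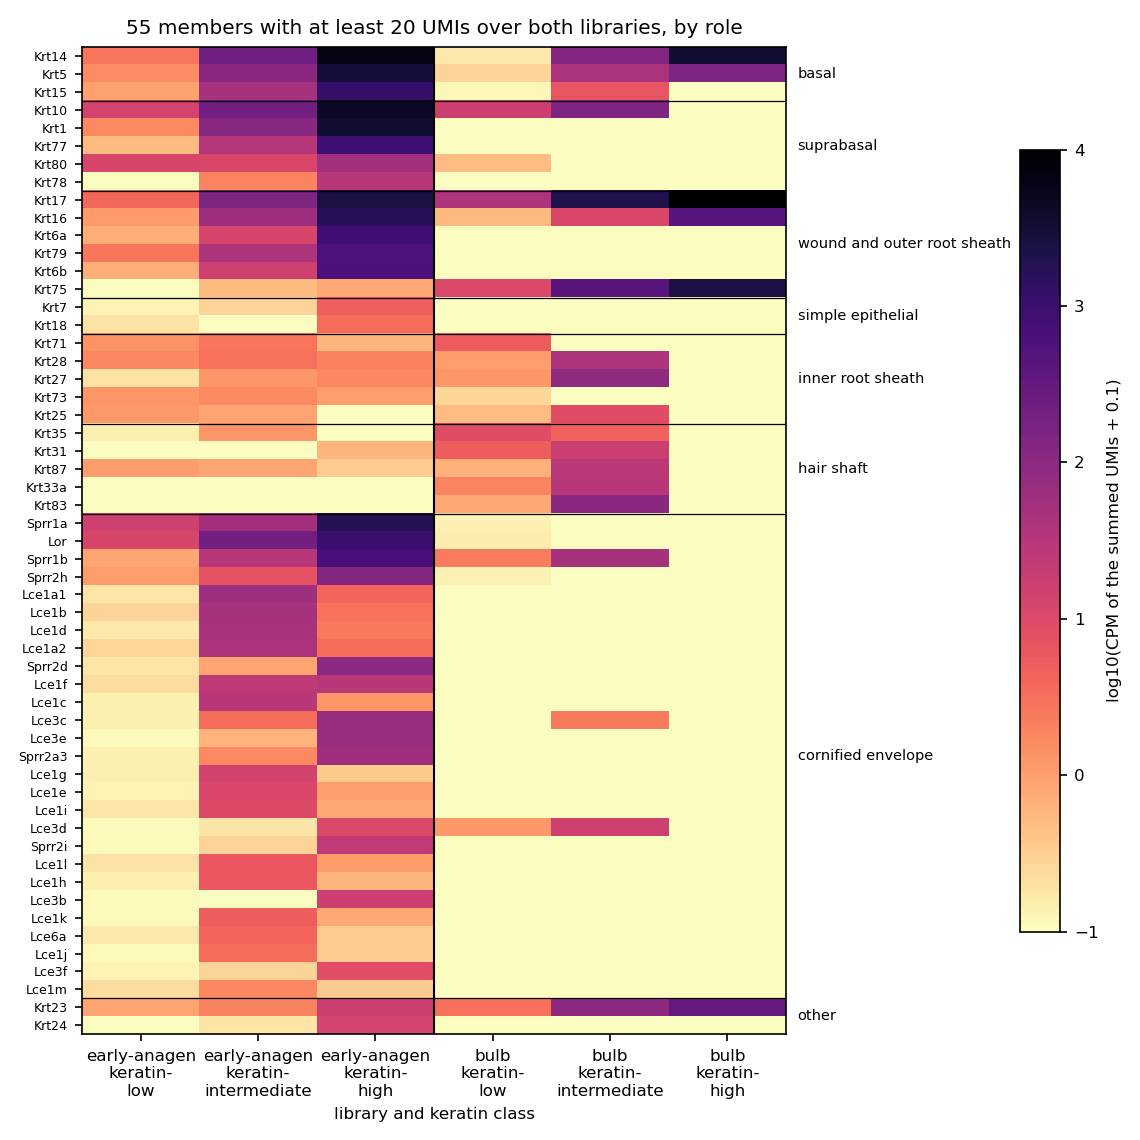
Rows are the 55 members with at least 20 UMIs over both libraries, grouped by role, and columns are the library and keratin class; colour is log10 of the CPM of the summed UMIs plus 0.1. Most Lce1 genes are darkest in the early-anagen intermediate column, and Krt75, Krt33a and Krt83 are darkest in bulb columns.

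In the early-anagen keratin-low class, members summed to 78.2 CPM (76.2 to 80.2) and 59 were detected. Just 3 melanocyte-poor barcodes with 2000 CPM or more of members held 41.1% of those UMIs, although they escaped the split because they had few or no UMIs of Krt5, Krt10 and Krt14. The first held 1108 member UMIs, 579 of them Sprr1a, and the second 994, 504 of them Sprr1a, and in both most were cornified envelope genes. The last held 297, of which 253 were inner root sheath keratins led by Krt28 with 104. These barcodes set the class levels of Sprr1a (15.7 CPM), Lor (12.0 CPM) and Krt28 (1.62 CPM), which without them were 1.21, 1.13 and 0.228 CPM. Without the 3 barcodes the class as a whole was at 46.1 CPM (44.6 to 47.7).

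The other barcodes of the class held members at low levels. Krt10 had 959 UMIs at 12.8 CPM (12.0 to 13.7) and was seen in 798 of 2743 barcodes (29.1%, 27.4 to 30.8), where UMIs dealt out by depth alone would reach 28.6%. The split allows at most 2 UMIs of the class genes in a barcode here, which by itself holds Krt10, Krt14 and Krt5 near an even spread. Over all 3130 early-anagen barcodes under 2000 CPM of members, where no such cap holds, Krt10 was in 36.1% against 45.2%, with up to 24 UMIs in a barcode. In the same set Krt14 was in 16.0% against 35.0% and Krt5 in 10.8% against 19.6%. Within the keratin-low class Krt80, which the split does not use, was in 559 barcodes (20.4%, 18.9 to 21.9) against 25.5%, with at most 7 UMIs in a barcode. Krt17, at 3.62 CPM, was in 5.03% against 9.28%, with up to 18 UMIs in a barcode. Krt79, of the follicle infundibulum, was in 1.97% against 4.78% with up to 27 UMIs, so that it gathered in few barcodes.

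**Figure D4:**
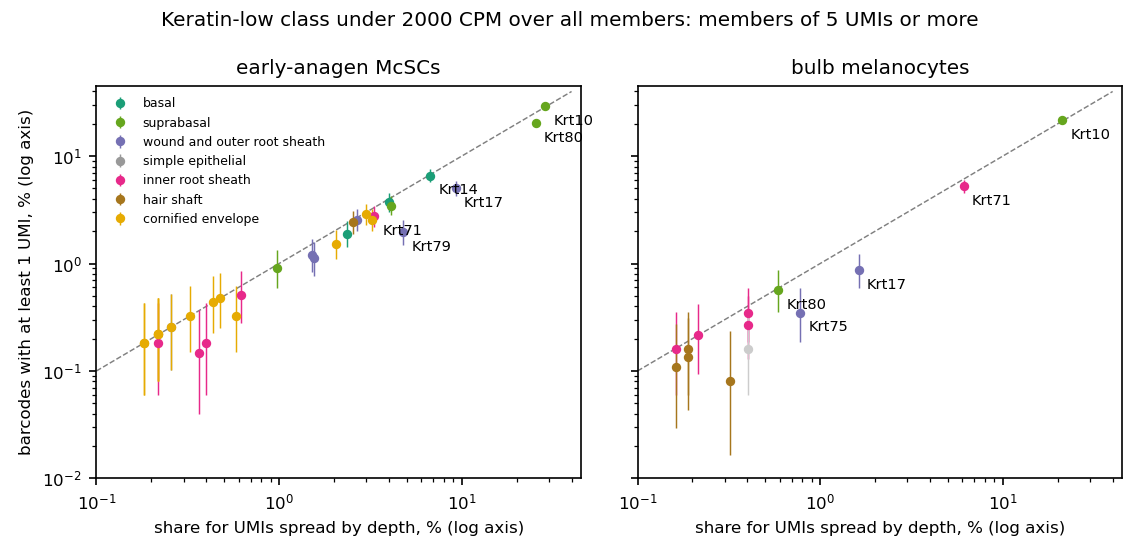
For members with at least 5 UMIs in the keratin-low class, leaving out barcodes of 2000 CPM or more over all members, the share of barcodes with a UMI (y, exact 95% intervals) is set against the share expected were the same UMIs spread by depth (x), in percent on log axes. Krt17 and Krt79 in early anagen and Krt17 and Krt75 in the bulb lie below the dashed line of equality; Krt5, Krt10 and Krt14 are held near it by the cap of 2 UMIs.

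Keratins of the bulb library were chiefly those of HF layers. In its keratin-low class, members summed to 97.1 CPM (94.5 to 99.7) and 33 were detected. Krt17 led with 37.2 CPM, in 1.66% of barcodes. Krt75, a type II keratin of the companion layer, was at 10.5 CPM, and Krt10 was at 16.3 CPM. The hair shaft keratins Krt35 and Krt31 were at 8.93 and 5.07 CPM, and Krt31 had 281 of its 284 UMIs in a single barcode. Krt71, an inner root sheath keratin, was at 5.16 CPM, Krt23 at 3.07 CPM and Sprr1b, a cornified envelope precursor, at 2.29 CPM. Krt14 had 4 UMIs and Krt5 had 10 in this class, and Krt1 had 0 in the whole library.

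Much of this was held by few barcodes. In the bulb library, 45 barcodes reached 2000 CPM of members, 32 of them keratin-low by the split, 12 intermediate and 1 high. Of these, 40 were melanocyte-poor, with a median of 404 CPM of melanocyte markers, and they held 75.1% of all member UMIs of the library. Their members summed to 12226 CPM (11899 to 12559). Krt17 was the leading gene of 39 of the 45 barcodes and Krt75 of 1 more. Hair shaft keratins led 4, with 281 UMIs of Krt31 in the first and 212, 81 and 97 UMIs of Krt35 in the others, and Krt71 led 1 with 52 UMIs. The plot of these barcodes shows the same split by the roles of the genes. These roles were assigned by hand, and the follicle layer of the barcodes was not tested. In the bulb keratin-intermediate class the inner root sheath protein Tchh was at 2837 CPM, whereas Sox9 had 0 UMIs and Lhx2 had 1.

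The 1 bulb barcode of the keratin-high class held 100 UMIs of Krt17, 22 of Krt14, 17 of Krt75, 3 of Krt16, 2 of Krt23 and 1 each of Krt5 and Krt90. Its depth was 6765 UMIs, and it held 6 UMIs of melanocyte markers (887 CPM). Its Ivl, at 3104 CPM, and Sfn, at 4730.2 CPM, were above their levels in the early-anagen keratin-high class, but each rests on this single barcode. Tchh, at 4139 CPM, and Tgm3 and Msx2, at 2069 and 1774 CPM, were likewise at their highest there. Ivl, Tchh, Tgm3 and Msx2 were named for their level in this barcode, so their high level in it was set by that choice. Of 57 listed Krtap genes (hair shaft matrix proteins), 15 were detected in the melanocyte-poor member-rich bulb barcodes at 3445 CPM in sum, and 3 in those of early anagen at 8.78 CPM.

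The 29 keratin-intermediate barcodes of the bulb were mixed. In 15 of them Krt10 was the only member, with 3 UMIs at most and melanocyte markers of 41467 to 82396 CPM. Another 12 were melanocyte-poor. Krt17, at 1993 CPM, was found in 14 barcodes of the class and Krt75, at 452 CPM, in 11. Krt10 was at 146 CPM and Krt14 at 132 CPM in the class. Krt27, an inner root sheath keratin, was at 89.6 CPM in 9 barcodes, Krt23 at 96.3 CPM in 10 and Sprr1b at 49.3 CPM in 4, whereas all 46 UMIs of the hair shaft keratin Krt83 (103 CPM) were in 1 barcode.

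**Figure D5:**
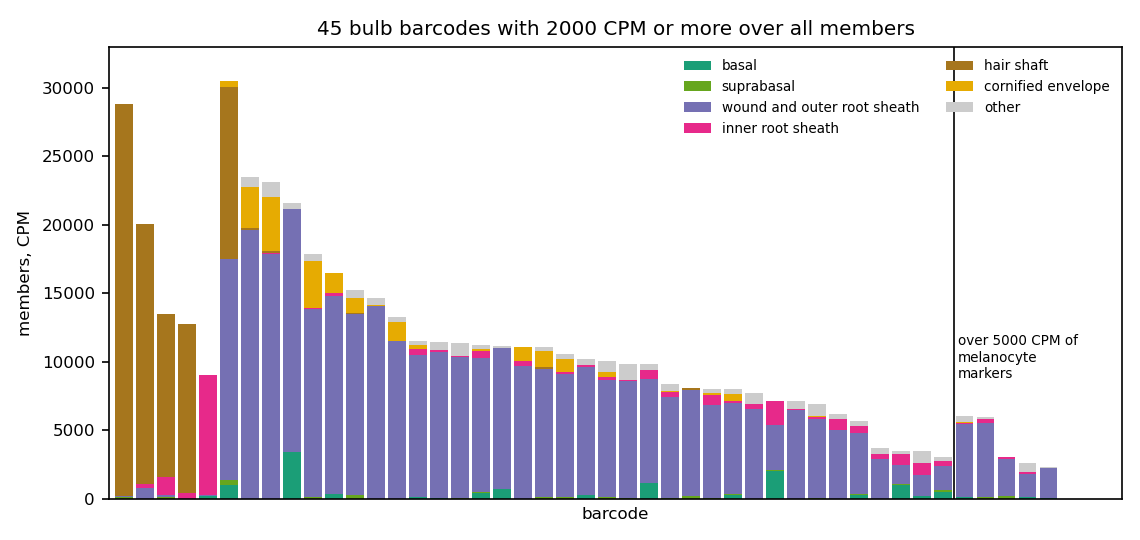
Bars are the 45 bulb barcodes with 2000 CPM or more over all members, stacked by the role of the gene (y, CPM); the 5 bars right of the line have over 5000 CPM of melanocyte markers. Roles were assigned by hand. Keratins given the wound and outer root sheath role (here mainly Krt17 and Krt75) fill most bars. Hair shaft keratins fill the first 4 and inner root sheath keratins the bar beside them. In 1 further bar there are both hair shaft keratins and keratins of the wound and outer root sheath role.

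The remaining 3712 keratin-low bulb barcodes had 24.4 CPM of members (23.1 to 25.7), from 25 genes. Krt10 gave 895 of the 1355 UMIs, at 16.1 CPM (15.1 to 17.2), and was in 800 barcodes (21.6%, 20.2 to 22.9), where the cap of 2 UMIs holds. Over all 3729 bulb barcodes under 2000 CPM of members, without the cap, Krt10 was in 21.9% against 22.1% for a spread by depth, with at most 3 UMIs in a barcode. Over all passing bulb barcodes, 2935 held no Krt10 UMI, 722 held 1, 98 held 2, 18 held 3 and 1 held 4. In early anagen 220 barcodes held 5 or more. The partner Krt1 was at 0 UMIs, so the ratio of Krt1 to Krt10 in the bulb keratin-low class was at most 0.00406, against 0.121 (0.0988 to 0.147) in the early-anagen keratin-low class and 0.820 (0.802 to 0.838) in the keratin-high class. The split caps the UMIs of Krt10 in both keratin-low classes and selects for them in the keratin-high class. These ratios therefore partly follow the split. The antisense gene Gm11940 overlaps Krt10 and had 12 and 7 UMIs in the libraries. Krt10 lies at chr11:99385254-99389364 on the minus strand of GRCm38. Krt71 was second, with 235 UMIs at 4.23 CPM in 196 barcodes (5.28%, 4.58 to 6.05) against 6.12% for a spread by depth.

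The share of keratin-low barcodes with any member UMI was 61.4% (59.5 to 63.2) in early anagen at a median of 24534.5 UMIs and 28.5% (27.0 to 29.9) in the bulb at 14275.5 UMIs. With each barcode thinned to 5000 UMIs the shares were 19.0% (17.6 to 20.6) and 11.4% (10.4 to 12.4). For Krt10 alone the thinned shares were 6.85% and 7.37%, for Krt80 4.12% and 0.267%, and for Krt71 0.655% and 1.95%. The split, made before thinning, caps the UMIs of Krt10, so its shares are partly set by it.

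The keratin-low classes of both libraries were then compared. Without Krt5, Krt10 and Krt14, the members' summed level in the bulb over that in early anagen had a log2 ratio of 0.39 (0.33 to 0.45). Leaving out the member-rich barcodes of both libraries (a choice made after seeing the data), it was -1.83, and at 0 UMIs of the class genes it was -0.73, so the direction of the difference depends on which barcodes are counted. Of 30 members tested, 12 were at least 2-fold higher in the bulb with an interval off 0, where 14.5% of all 14982 genes were, and 16 were lower, where 37.0% of all genes were. Without the member-rich barcodes, 5 of 25 were higher, against 13.7% of all genes, and 16 were lower, against 37.7%. Those barcodes were picked by the level of the members themselves, so these counts are partly set by that choice. The median log2 ratio over all genes was -0.43, and that over the 17 members with UMIs in both classes was -0.78. Without the member-rich barcodes these medians were -0.45 and, over 13 members, -0.31. TMM factors move every log2 ratio by 0.31 and the reduced total by -0.17. With 1 library per condition, none of these differences has a replicate check.

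Among members lower in the bulb without the member-rich barcodes, Krt80 was at 0.396 CPM against 11.1 CPM (log2 ratio -4.82, -5.50 to -4.21). Krt80 lies at chr15:101347444-101370162, and its antisense neighbour Gm35853, counted with the miRNA gene overlapping it, had 6 and 1 UMIs. Krt17 was at 1.10 against 3.62 CPM (-1.72, -2.15 to -1.32), whereas with the member-rich barcodes it was higher in the bulb (3.27, 3.09 to 3.45). Krt79 and Krt1 had no UMI in these bulb barcodes and were at least 33.5-fold and 28.8-fold lower, with 3 UMIs over the class taken as the upper limit for 0. Krt16 also had none and was at least 18.6-fold lower, whereas with the member-rich barcodes it had 24 UMIs against 75 (log2 ratio -1.23, -1.96 to -0.55). Member-rich barcodes, 32 in the bulb class and 3 in the early-anagen class, were picked by the summed level of all members, Krt16 and Krt17 included. The values without them are therefore partly set by that choice. Sprr1a was lower by a log2 ratio of -5.07 (-8.13 to -3.17) and Lor by -4.38 (-6.69 to -2.79). Krt71 was higher, at 4.23 against 1.25 CPM (1.76, 1.41 to 2.12). Krt10 did not reach 2-fold (0.33, 0.19 to 0.46), but the split caps its UMIs in every barcode of both classes.

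The other epidermal lists were mostly lower in the bulb after these barcodes were left out. Epidermal adhesion genes were at least 2-fold lower in the bulb for 6 of 8 tested, keratinocyte identity genes for 8 of 12 and cornification genes for 5 of 6, with 1 higher, where 37.7% of all genes were lower and 13.7% higher. In the keratin-low classes as split, the numbers lower were 4 of 12, 7 of 13 and 8 of 12, and 3, 4 and 3 were higher, where 37.0% of all genes were lower and 14.5% higher. Hair follicle genes were higher in the bulb for 9 of 15 and lower for 4 without the member-rich barcodes. In the classes as split they were higher for 11 of 16 and lower for 4. Melanocyte markers were higher for 5 of 8 and lower for 1 in both comparisons. Some listed genes were widespread in keratin-low barcodes of early anagen. There Cdh3 was at 145 CPM in 92.3% of barcodes, Cdh1 at 102 CPM in 87.8% and Itga6 at 39.0 CPM in 58.1%. Postn was at 26.8 CPM in 35.2%. In the bulb keratin-low class Cdh3, Cdh1, Itga6 and Postn were at 67.5, 4.00, 7.52 and 0.500 CPM. The paper counts Cdh1 among its stem-cell-enriched genes. Levels of an epidermal list and of the members can both follow the amount of epithelial RNA in a library, which was not tested.

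Markers of other cell types were measured in the same classes. In the early-anagen keratin-high class the 3 Merkel cell genes (Atoh1, Isl1 and Sox2) had no UMI, fibroblast genes summed to 1.91 CPM (Dcn 1.20 and Col1a2 0.717 CPM), endothelial genes to 0.478 CPM (all of it Pecam1) and immune genes to 10.8 CPM, nearly all of it Cd74. In the keratin-low class of early anagen these sums were 0.0268 CPM for Merkel, 1.28 CPM for fibroblast, 0.214 CPM for endothelial and 31.9 CPM for immune genes. In the bulb keratin-low class they were 0, 0.500, 0.0357 and 7.61 CPM. In the bulb intermediate class the fibroblast gene Dcn was at 107 CPM (48 UMIs, in 10.3% of barcodes), above Krt27 there. The other listed fibroblast genes (Col1a1, Col1a2, Col3a1, Lum and Pdgfra) had no UMI in that class. The part of Dcn-bearing barcodes in the keratin values was not tested. The simple epithelial keratins Krt8 and Krt18, which Merkel cells express, were at 1.67 and 3.35 CPM in the early-anagen keratin-high class.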

How the data were processed

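Droplet scRNA-seq data of GFP-sorted cells were analysed, with 1 library per condition. Each deposited matrix holds unnormalised UMI counts for genes by barcodes, which the authors made with Cell Ranger 6.0.1 against mm10 (both named in the submitters' processing notes). The lowest barcode held 500 UMIs in early anagen and 504 in the bulb. The study's own quality limits were applied (under 5% mitochondrial UMIs and more than 10000 or 5000 UMIs), which left 3464 of 11010 and 3774 of 4327 barcodes. Its epidermal cluster was not removed, since these transcripts are the subject here.

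UMIs were summed over the barcodes of a class and divided by their total. Exact Poisson intervals were used for levels, Clopper-Pearson intervals for shares and conditional exact intervals for ratios. A gene was tested from 10 UMIs in both groups together, and called at 2-fold or more with an interval off 0. No p-value was computed. Counting was per molecule at the 3′ end, so levels needed no length correction. Reads of near-identical copies (Krt6a and Krt6b, the Sprr2, Lce1 and hair shaft keratin genes) can be lost or split by unique mapping, and their levels are uncertain.

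Named genes were Krt5, Krt10, Krt14, Lor, the 8 members with the highest CPM in each library and class, and 3 genes per marker list. Those 3 had the highest CPM of the list over the keratin-high class of either library. In the bulb that class is a single barcode. Further genes were named after their values were seen. The result of 1 further marker list is not reported here. Members and lists were chosen with earlier results of these data known. Roles were assigned by hand from general knowledge. Gene coordinates came from GENCODE vM21 and promoter windows from RefSeq, both on GRCm38. The limits of 2000 CPM over all members (member-rich), 5000 CPM of melanocyte markers and 500 CPM, and the depth bins, were set after values were seen. Alternatives were other UMI, mitochondrial and class limits, thinning to 5000 UMIs, a total without mitochondrial, ribosomal protein and 9 pigmentation genes, and edgeR 4.0.16 TMM factors. Python 3.11.15, scipy 1.17.1 and R 4.3.3 were used.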

Additional observations from a re-analysis of the deposited data

Results flagged for a closer look

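Barcodes that failed the quality filter lie outside every comparison above, yet they held member UMIs well above the limit that a count of 0 allows. In early anagen the 7546 failed barcodes, with a median of 1923 UMIs, held 60101 member UMIs, or 2294 CPM. Krt14 was at 349 CPM, Krt10 at 285 CPM, Krt1 at 221 CPM and Lor at 132 CPM there. In the bulb the 553 failed barcodes, with a median of 1615 UMIs, held 2129 member UMIs, or 1235 CPM, led by Krt17 at 440 CPM, Krt75 at 145 CPM and the inner root sheath keratins Krt71 at 110 CPM and Krt25 at 82.9 CPM. The source of these UMIs was not tested.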

How the results depend on the processing

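With 1 library per condition, no replicate could be left out and no p-value moves. No paired analysis was possible because each group is a single library. Depth limits the rarer members: a gene at 0 in a class may lie below detection. Of 48 class counts recomputed under other settings, 34 stayed within 1.5 times. For early anagen, without a UMI minimum 5912, 1446 and 495 barcodes were keratin-low, intermediate and high; thinning left 323 intermediate; the keratin-high count was 241 at 1000 CPM, 73 at 4000 CPM and 334 with all members as class genes. For the bulb, 7 were intermediate after thinning, 11 by Krt5 and Krt14 only and 45 with all members; 0 were keratin-high with 10000 UMIs in both libraries, 5 at 1000 CPM, 0 at 4000 CPM and 45 with all members.

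Of 64 counts of detected members, 52 stayed. From 10 UMIs, 25, 40 and 36 members counted in the early-anagen classes from low to high; in the bulb 21 counted over all classes and 19, 13 and 3 by class. The bulb intermediate class had 15 members at 10000 UMIs in both libraries and 14 at 1000 CPM; the single keratin-high barcode gave way to 0 at 10000 UMIs, 24 at 1000 CPM and 0 at 4000 CPM.

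Early-anagen keratin-low level (78.2 CPM): 238 without a UMI minimum, 159 after thinning, 461 by Krt5 and Krt14 only, 94.2 as a mean over barcodes, 112 with the reduced total and 46.1 without member-rich barcodes. Bulb (97.1 CPM): 104, 129, 103, 119, 124 and 24.4, in that order, plus 84.8 at 10000 UMIs in both libraries and 105 at the 10% mitochondrial limit. For the summed members, bulb against early anagen, the log2 ratio (0.39) became 0.23 with the reduced total and 0.71 with edgeR TMM factors; it reversed to -0.73 at 0 UMIs of the class genes and to -1.83 without member-rich barcodes. Of 16 members with UMIs in both classes after those barcodes were left out, TMM turned the direction of Krt25 alone. Shares of barcodes with a member UMI after thinning were 19.0% and 93.7% in the early-anagen keratin-low and intermediate classes and 11.4% and 75.9% in the bulb ones. Alternatives that left out member-rich barcodes or used all members as class genes were chosen after seeing the data; beyond their construction, the cause was not tested.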
